A study of Mus musculus with 16 samples.

Results

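The inflammatory cytokines Tnf and Il6 and the chemokines Ccl2, Ccl3, Ccl4, Ccl5, Ccl6, Ccl9, Cxcl2 and Cxcl10 were followed in the dendritic cell progenitors of tumor-bearing and tumor-free mice. They were taken by gene symbol: every noncontrol probe whose symbol in the scanner output equals 1 of these 10 names, which gave 11 of 39429 probes (Cxcl10 has 2 probes, the others 1 each). The arrays profiled 2 successive stages of dendritic cell development in bone marrow (BM). The earlier stage, the macrophage-dendritic cell progenitor (MDP), can still form monocytes, and the later one, the common dendritic cell progenitor (CDP), is committed to dendritic cells. Both were sorted from lineage-depleted BM of female C57/Bl6 mice. Tumor-bearing mice carried orthotopic PyMT B6 mammary tumors, from a cell line of the MMTV-PyMT mammary tumor model placed in the mammary fat, grown to 1.5 cm diameter. Tumor-free controls were age-matched and received no tumor. Each of the 4 groups (MDPs and CDPs, each with and without tumor) had 4 arrays, numbered 2 to 5, and each array held RNA pooled from a pair of mice. The tumors came from an implanted cell line, not from a tumor that arose in place, and pooling hides the spread between animals. The design names independent experiments without saying which samples shared one, so p-values measure the spread between these samples.

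Tumor necrosis factor and interleukin-6 are secreted by activated myeloid cells and drive acute inflammation. Chemokines are small secreted proteins that bind G protein-coupled receptors and direct leukocyte migration, and they are divided by the spacing of their first cysteines into CC and CXC families. In BM, CCL2 acts through CCR2 on monocyte egress, and the ligands of CXCR2 act on neutrophil release. Many of these genes are transcribed on NF-kappaB activation, whereas PU.1, an ETS factor that defines the myeloid lineage, binds purine-rich sites near many myeloid genes.

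Along mouse chromosome 11, RefSeq orders Ccl5, Ccl9, Ccl6, Ccl3 and Ccl4 as neighbors among protein-coding genes. With the scaling used here, Ccl6 and Ccl9, neighbors there, were the only members with groups that did not overlap in any comparison. Ccl6 was higher in CDPs than in MDPs, as were 6.57% (tumor-free) and 7% (tumor-bearing) of the tested probes described below. Ccl9 was higher with tumor, as were 2.8% of them in MDPs and 5.8% in CDPs, but its groups overlapped after quantile normalization. Ccl6 and Ccl9 thus differed in pattern. Their last 100 bases before the annotated start are shown for that reason, from RefSeq on build GRCm38.p6, 5′ to 3′ on the minus strand. Capitals mark a run of 13 bases that both hold, starting at base -55 of Ccl6 and base -14 of Ccl9 counted from the start. It contains the complement of GGAAGT, the core that PU.1 and other ETS factors bind.
Ccl6, chr11:83593088-83593187: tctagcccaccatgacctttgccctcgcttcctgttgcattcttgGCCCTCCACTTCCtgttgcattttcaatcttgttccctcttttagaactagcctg
Ccl9, chr11:83578637-83578736: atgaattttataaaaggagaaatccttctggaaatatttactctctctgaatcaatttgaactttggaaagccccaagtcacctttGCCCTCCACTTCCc

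The 250 bases before the start were searched on both strands for GGAAGT and for GGGANTTNC, a form of the kappaB site in which N is any base. RefSeq windows were at hand for 7 of the 10 members (Ccl2, Ccl4 and Ccl5 had none). GGAAGT was found in 5 of these 7 (Tnf, Ccl3, Ccl6, Ccl9 and Cxcl10), against 19.7% of 32851 windows of the same length. The kappaB form was found in 3 of the 7 (Il6, Cxcl2 and Cxcl10), against 3.54% of all windows. The 3 kappaB matches are shown in capitals within 30 bases, because these 3 genes were well above background on the fewest arrays. In Cxcl10 the kappaB match overlaps a GGAAGT match. A match describes the letters and not occupancy.
Il6, chr5:30013060-30013089, plus strand: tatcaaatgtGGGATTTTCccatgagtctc
Cxcl2, chr5:90903792-90903821, plus strand: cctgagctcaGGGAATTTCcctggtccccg
Cxcl10, chr5:92348973-92349002, minus strand: cggtttacagGGGACTTCCctcgggttgcg

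Values below are log2 signals relative to the 75th percentile of the same array, so 0 is the level of that percentile, and they are compared within a probe only. Agilent's flag for a signal well above background was set for 58.8% to 71.5% of probes per array, the 75th percentile lay between 3633 and 4655 intensity units, and 0 spots were saturated. The 16 arrays were on 4 slides of 4. Slides 2 and 3 each held 1 array of every group, slide 1 held 2 arrays of MDPs and 0 of CDPs from tumor-bearing mice, and slide 4 held 2 arrays of CDPs and 0 of MDPs from tumor-bearing mice. As a check of identity, each of the 7 progenitor markers (Kit, Flt3, Csf1r, Cx3cr1, Csf2ra, Irf8 and Spi1) was well above background on at least 1 array of every group, and Kit was lower in CDPs than in MDPs by limma (-2.59 ± 0.196 (SE), adjusted p = 3.80e-06 in tumor-free mice). With tumor, 5 of the 7 were lower and 2 higher in CDPs. Kit passed the test there (-1.34 ± 0.196 (SE), limma adjusted p = 0.00441), and Cx3cr1 was lower without overlap (-1.27 ± 0.409 (SE), limma adjusted p = 0.148). The summed signal of 11 neutrophil markers was 52.6 to 94.2 times the 75th percentile in MDPs, 27.0 to 38.6 in tumor-free CDPs and 49.5 to 75.3 in tumor-bearing CDPs. Most of this sum came from Mpo and Elane (means of 4.82 and 4.83 in tumor-free MDPs), granule genes that early myeloid progenitors also express, whereas Camp, Ngp and Ltf, genes of later neutrophils, averaged -3.04, -3.28 and -3.54 there. Other markers of the list, Lcn2, Mmp8, S100a8 and Retnlg, were well above background on all 4 arrays of every group. With tumor, 7 of the 11 were higher in MDPs and 4 lower, and Lcn2 passed the test (2.17 ± 0.351 (SE), limma adjusted p = 0.0493).

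Of the 11 probes, 5 were well above background on 16 of 16 arrays: Tnf, Ccl2, Ccl5, Ccl6 and Ccl9. Ccl4 was above background on 15 arrays, Ccl3 on 12, the first Cxcl10 probe on 10, Cxcl2 on 8, the second Cxcl10 probe on 3 and Il6 on 0. Testing was limited to probes flagged in this way on 3 or more of the 4 arrays of any group, which kept 9 member probes, 1 for each gene but Il6, among 27433 probes. A probe was called when its limma p, Benjamini-Hochberg adjusted over all 27433, was under 0.05 and its fold change was above 1.5.

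**Figure D1:**
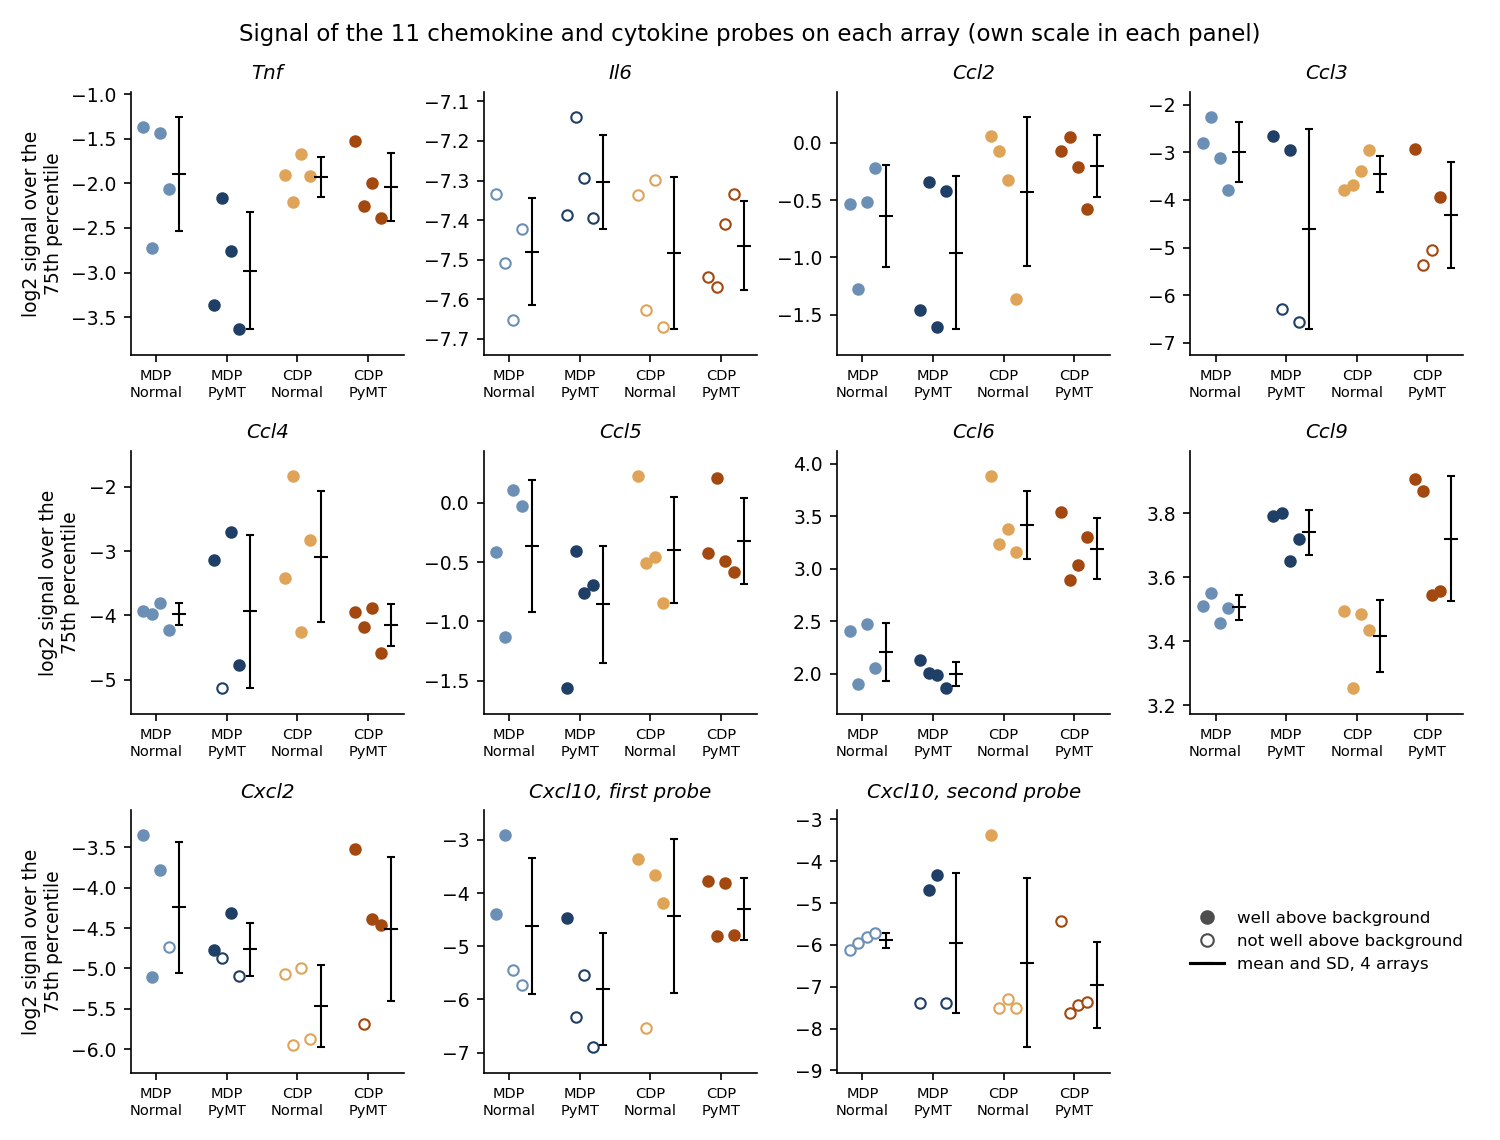
Log2 signal relative to the 75th percentile of the array (vertical axis) for the 11 member probes in the 4 groups, with 1 point per array, open points for arrays not well above background, and bars for the mean ± SD of 4 arrays. Ccl6 is higher in both CDP groups (2.89 to 3.88) than in both MDP groups (1.86 to 2.47), and Il6 has open points only.

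Among the cytokines, Tnf, which codes for the trimeric ligand of TNFR1 and TNFR2, was measured in every progenitor sample. In tumor-free MDPs its log2 signal was -1.37, -2.72, -1.43 and -2.07 in replicates 2 to 5. In tumor-bearing MDPs it was -3.36, -2.16, -2.76 and -3.64. The MDP groups overlapped, since tumor-free replicate 3 was below tumor-bearing replicate 3. Mean Tnf was -1.90 ± 0.635 (SD, n = 4) without tumor and -2.98 ± 0.657 (SD, n = 4) with tumor, a difference of -1.08 ± 0.345 (SE), or 2.12-fold lower with tumor. This difference had an unadjusted limma p of 0.00722 and an adjusted p of 0.332, so Tnf was not called, and the exact two-sided permutation p was 0.0571. Within slides the Tnf difference in MDPs was -1.57 to -0.34 and negative on 3 of 3 slides.

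In CDPs, Tnf was -1.91, -2.21, -1.68 and -1.92 without tumor and -1.52, -2.26, -2.0 and -2.39 with tumor, and the groups overlapped. The difference was -0.11 ± 0.345 (SE), with a 95% interval of -0.85 to 0.63. The test of whether the tumor difference in Tnf itself differed between CDPs and MDPs gave 0.97 ± 0.488 (SE) with an adjusted p of 0.749. In tumor-bearing mice, Tnf was 0.94 ± 0.345 (SE) higher in CDPs than in MDPs, with an adjusted p of 0.112, and the groups overlapped. Over the 8 fits that each left out 1 array, this difference was 0.72 to 1.21, with limma adjusted p of 0.0468 to 0.264. Only 1 of them passed the test, the fit without tumor-bearing MDP replicate 3, the highest Tnf value of its group (1.21). The Tnf probe is printed on 10 spots per array, and the spots of an array had a median SD of 0.0803 log2 units. The spread between samples was therefore larger than the spread between spots. The Tnf probe matches chr17:35336795-35336854 on build mm9, minus strand, per the array annotation.

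Il6, which codes for interleukin-6, an inducer of the acute-phase response and of emergency granulopoiesis, was not well above background on any of the 16 arrays. Its signal lay between -7.67 and -7.14, or 22.5 to 26.4 intensity units, in all groups. Il6 was not tested, and no fold change is given. The arrays set no level for Il6 in MDPs or CDPs beyond this limit.

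Among the CC chemokines, Ccl6, a chemokine of rodent myeloid cells, was the member that separated the progenitors. In tumor-free mice its log2 signal was 2.41, 1.90, 2.47 and 2.06 in MDPs and 3.88, 3.23, 3.38 and 3.16 in CDPs. In tumor-bearing mice it was 2.13, 2.01, 1.99 and 1.86 in MDPs and 3.54, 2.89, 3.04 and 3.30 in CDPs. Every CDP sample was above every MDP sample. Ccl6 was 1.20 ± 0.197 (SE) higher in CDPs than in MDPs without tumor (2.30-fold, limma adjusted p = 0.00205) and 1.19 ± 0.197 (SE) higher with tumor (2.29-fold, limma adjusted p = 0.00222). The exact two-sided permutation p was 0.0286 in each case, the smallest that 4 against 4 arrays allow. In bulk RNA, a larger share of Ccl6-expressing cells and more Ccl6 RNA per cell cannot be told apart.

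Ccl6 was the 1 called member among 9 in each comparison of CDPs with MDPs, where 6.07% (tumor-free) and 7.24% (tumor-bearing) of all 27433 probes were called. It was also the 1 member with every CDP sample above every MDP sample, as were 6.57% and 7% of all tested probes. Within slides, the Ccl6 difference was 0.759 to 1.82 on 4 of 4 slides without tumor and 1.03 to 1.44 on 2 of 2 slides with tumor. Of the variance of Ccl6 over the 16 arrays, 87.7% lay between groups and 16.6% between slides, which are not independent of the groups. With quantile normalization the difference was 1.25 without and 1.1 with tumor, and again no sample overlapped.

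The tumor differences of Ccl6 did not pass the test. They were -0.22 ± 0.197 (SE) in CDPs and -0.21 ± 0.197 (SE) in MDPs, with adjusted p of 0.727 and 0.663, and the groups overlapped in both. The 95% intervals were -0.64 to 0.20 in CDPs and -0.63 to 0.21 in MDPs. The test between these gave -0.01 ± 0.278 (SE) with an adjusted p of 0.992. The order of mean Ccl6 was tumor-free CDPs, tumor-bearing CDPs, tumor-free MDPs and tumor-bearing MDPs, and only the step from CDPs to MDPs had groups that did not overlap.

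Markers of monocytes and macrophages, like Ccl6, were mostly higher in CDPs than in MDPs. Their summed signal was 29.9 to 41.7 times the 75th percentile in MDPs and 42.1 to 68.7 in CDPs. Of 11 tested markers 8 were higher in tumor-free CDPs and 11 in tumor-bearing CDPs, against 52.1% and 61.5% of all tested probes. Their medians were 0.51 and 0.80. Among those passing the test were Cd68, Chil3 and Ccr2 in both tumor states and Vcan in tumor-bearing mice. Of 9 tested markers of conventional and plasmacytoid dendritic cells, 9 were higher in tumor-free CDPs (median 1.06) and 8 in tumor-bearing CDPs (median 1.52). The part of these cells in the Ccl6 difference was not tested. The genes whose values over the 16 arrays were most like those of Ccl6, among 13972 genes, were Plbd1 (Pearson r = 0.976), Myadm (r = 0.965) and Rarg (r = 0.956). With each slide's mean removed these were 0.978, 0.960 and 0.954. Such correlations describe arrays that share slides and progenitor stage.

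Ccl9, a CCR1 ligand also called MIP-1 gamma, was at nearly the same level in both progenitors and differed slightly with tumor. In MDPs its log2 signal was 3.51, 3.55, 3.46 and 3.50 without tumor and 3.79, 3.80, 3.65 and 3.72 with tumor. In CDPs it was 3.49, 3.25, 3.48 and 3.43 without tumor and 3.91, 3.87, 3.55 and 3.56 with tumor. In both progenitors every tumor-bearing sample was above every tumor-free sample. The differences were 0.23 ± 0.123 (SE) in MDPs (1.18-fold, limma adjusted p = 0.519) and 0.30 ± 0.123 (SE) in CDPs (1.23-fold, limma adjusted p = 0.276), so Ccl9 was not called. The exact two-sided permutation p was 0.0286 in each progenitor, again the smallest possible. Ccl9 was the 1 member of 9 that was higher with tumor without overlap, as were 2.8% of all tested probes in MDPs and 5.8% in CDPs.

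The separation of Ccl9 depended on how arrays were scaled. After quantile normalization the tumor difference was 0.21 in MDPs and 0.06 in CDPs, the groups overlapped, and the exact two-sided permutation p was 0.343 and 0.657. Within slides the Ccl9 difference was positive on 3 of 3 slides in each progenitor, at 0.169 to 0.292 in MDPs and 0.0613 to 0.636 in CDPs. Of 11 tested neutrophil markers, 7 were higher with tumor in each progenitor, against 57.7% of all tested probes in CDPs and 39.8% in MDPs, and Lcn2 passed the test in MDPs and Elane, Lcn2 and Mmp8 in CDPs. Of 11 tested monocyte and macrophage markers, 10 were higher with tumor in CDPs, where Vcan passed the test (3.97 ± 0.897 (SE), adjusted p = 0.0406), and 5 in MDPs, where Chil3 did (3.21 ± 0.515 (SE), adjusted p = 0.0493). The part of these cells in the Ccl9 difference was not tested. Between CDPs and MDPs, Ccl9 differed by -0.09 ± 0.123 (SE) without tumor and -0.02 ± 0.123 (SE) with tumor. The genes most like Ccl9 over the 16 arrays were Fcgr3 (r = 0.906), Dstn (r = 0.836) and H6pd (r = 0.798).

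Ccl2, the main CCR2 ligand, was -0.54, -1.27, -0.52 and -0.22 in tumor-free MDPs and -1.46, -0.34, -1.61 and -0.42 in tumor-bearing MDPs. In CDPs it was 0.06, -0.07, -0.32 and -1.37 without tumor and -0.07, 0.05, -0.21 and -0.57 with tumor. All groups overlapped. The 4 lowest Ccl2 values of the 16 were the 4 arrays of slide 1, with a mean of -1.43 against -0.35, -0.29 and -0.15 on slides 2 to 4. Of the variance of Ccl2, 88.7% lay between slides and 26.7% between groups. The tumor difference was -0.32 ± 0.362 (SE) in MDPs and 0.22 ± 0.362 (SE) in CDPs, and without slide 1 it was 0.04 and -0.09, the opposite signs. Ccl2 has 10 spots per array, with a median SD of 0.0666 log2 units between spots.

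Ccl5, which codes for RANTES, a ligand of CCR1 and CCR3, shared the low values of slide 1. It was -0.41, -1.14, 0.11 and -0.03 in tumor-free MDPs and -1.56, -0.41, -0.76 and -0.69 in tumor-bearing MDPs. In CDPs it was 0.22, -0.51, -0.46 and -0.85 without tumor and -0.43, 0.21, -0.49 and -0.58 with tumor. Each group overlapped each other group. The slide mean was -1.08 on slide 1 and -0.44, -0.27 and -0.15 on slides 2 to 4, and 59.7% of the variance of Ccl5 lay between slides. The tumor difference was -0.49 ± 0.322 (SE) in MDPs (adjusted p = 0.579) and 0.07 ± 0.322 (SE) in CDPs (adjusted p = 0.945), and the latter was -0.08 without slide 1.

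**Figure D2:**
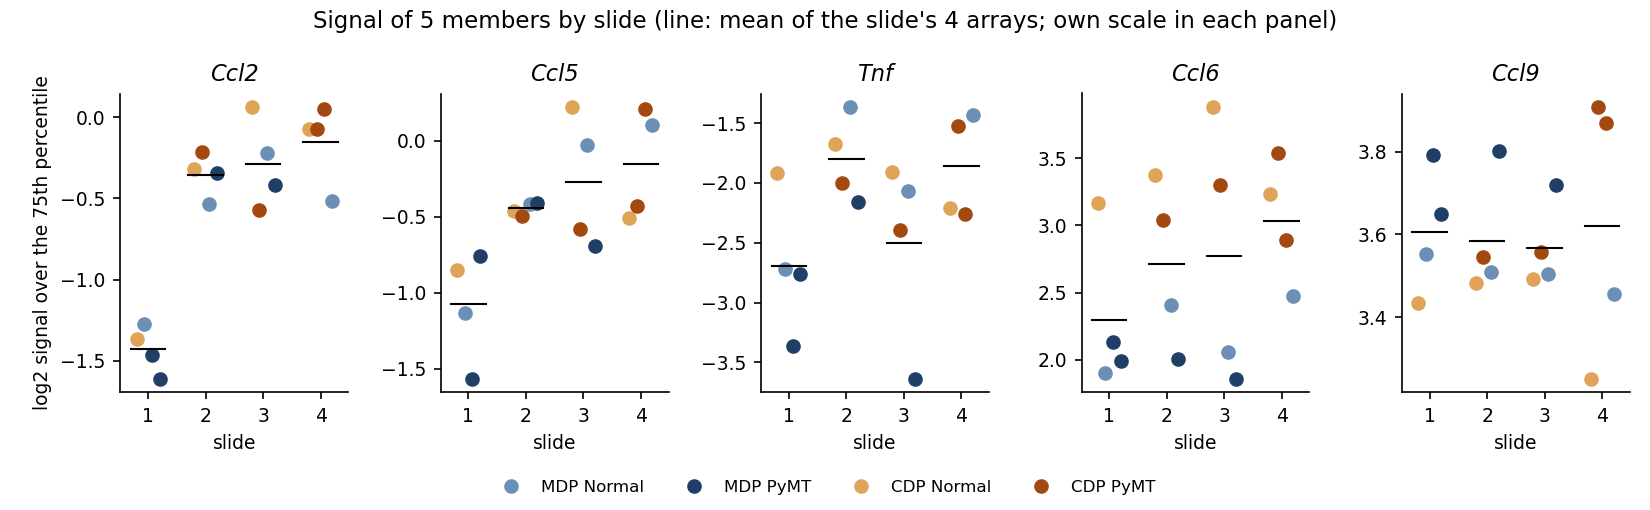
Log2 signal relative to the 75th percentile of the array (vertical axis) by slide (horizontal axis) for member probes, with 1 point per array colored by group. Ccl2 and Ccl5 are lowest on slide 1 (means -1.43 and -1.08), whereas Ccl6 separates by progenitor on each slide.

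Ccl3 and Ccl4, which code for MIP-1 alpha and MIP-1 beta, were near the background in part of the samples. Ccl3 was -2.81, -2.27, -3.12 and -3.79 in tumor-free MDPs, and -2.66, -6.29, -2.96 and -6.57 in tumor-bearing MDPs, of which replicates 3 and 5 were not well above background. In CDPs it was -3.79, -3.70, -3.38 and -2.95 without tumor and -2.92, -5.37, -5.04 and -3.94 with tumor, of which replicates 3 and 4 were not well above background. Background was thus exceeded on 8 of 8 tumor-free and 4 of 8 tumor-bearing arrays, and the groups overlapped in both progenitors. The tumor difference was -1.62 ± 0.818 (SE) in MDPs (adjusted p = 0.509) and -0.86 ± 0.818 (SE) in CDPs (adjusted p = 0.747). Ccl3 had entered the test through the tumor-free groups alone, so the filter favored lower values with tumor. Without slide 1 the MDP difference was -3.19 (adjusted p = 0.207), and leaving out 1 array it was -2.27 to -0.97. The tumor-bearing MDP samples with Ccl3 above background, replicates 2 and 4, were those on slide 1, where Ccl3 averaged -2.71 against -4.38, -4.52 and -3.78 on slides 2 to 4.

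Ccl4 was -3.93, -3.98, -3.81 and -4.22 in tumor-free MDPs and -3.14, -5.14, -2.71 and -4.77 in tumor-bearing MDPs, of which replicate 3 was not well above background. In CDPs it was -3.41, -1.84, -4.27 and -2.83 without tumor and -3.95, -4.18, -3.88 and -4.59 with tumor. The groups overlapped, and replicates 2 and 4 of tumor-bearing MDPs, both on slide 1, were again the highest of their group. The tumor difference of Ccl4 was -1.07 ± 0.536 (SE) in CDPs (adjusted p = 0.419) and 0.05 ± 0.536 (SE) in MDPs (adjusted p = 0.975). Without slide 1 the latter was -0.97.

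Among the CXC chemokines, Cxcl2, a CXCR2 ligand that attracts neutrophils, was not well above background in any of the 4 tumor-free CDP samples. Its signal was -5.07, -5.95, -4.99 and -5.87 there and -3.52, -5.69, -4.39 and -4.46 in tumor-bearing CDPs, of which 3 of 4 were above background. In MDPs it was -3.35, -5.10, -3.78 and -4.74 without tumor and -4.77, -4.87, -4.32 and -5.10 with tumor, with 3 and 2 of 4 arrays above background. All these groups overlapped. Tumor-free CDP signals below the lowest signals that were well above background were raised to that level. Mean Cxcl2 was then 1.63-fold higher with tumor in CDPs, against 1.94-fold as measured (limma adjusted p = 0.374). The 1.63-fold value is not a lower limit, because it leaves out the spread between samples. The limma 95% interval of the measured log2 difference was -0.01 to 1.92, and the exact two-sided permutation p was 0.143. Without tumor-bearing CDP replicate 2 the value with raised signals was 1.30-fold. With normexp background correction the measured log2 difference was 0.37 in place of 0.96. With signals raised in the same way, mean Cxcl2 was 1.97-fold higher in MDPs than in CDPs of tumor-free mice. As measured it was 2.34-fold higher (limma adjusted p = 0.146). Neither was called. The test of whether the tumor difference of Cxcl2 differed between progenitors gave 1.47 ± 0.639 (SE), with an unadjusted limma p of 0.0367 and an adjusted p of 0.749. Cxcl2 had entered the test through tumor-free MDPs and tumor-bearing CDPs alone. The filter thus favored a positive value here, higher values with tumor in CDPs and higher values in MDPs than in CDPs of tumor-free mice. All these p-values are given as a description.

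Cxcl10, an interferon-induced CXCR3 ligand, was measured by 2 probes. Per the array annotation the first probe matches the RefSeq transcript of Cxcl10, and the second a different transcript record for which no RefSeq symbol was found. The first gave -4.39, -2.92, -5.45 and -5.73 in tumor-free MDPs and -4.46, -6.33, -5.53 and -6.90 in tumor-bearing MDPs, with 2 and 1 of 4 arrays well above background. In CDPs it gave -3.36, -6.53, -3.65 and -4.18 without tumor and -3.78, -4.81, -3.80 and -4.80 with tumor, with 3 and 4 of 4 arrays above background. The groups overlapped in every comparison. The tumor difference was -1.19 ± 0.749 (SE) in MDPs (adjusted p = 0.567) and 0.13 ± 0.749 (SE) in CDPs (adjusted p = 0.958). In tumor-bearing mice Cxcl10 was 1.51 ± 0.749 (SE) higher in CDPs than in MDPs (adjusted p = 0.196), and with the slide as a block this difference was 2.59 and passed the test (adjusted p = 0.0409). The first probe had entered the test through CDPs alone, so the filter favored higher values in CDPs and these p-values are given as a description. The second probe was above background on 3 of 16 arrays only, tumor-bearing MDP replicates 3 and 4 (-4.69 and -4.33) and tumor-free CDP replicate 2 (-3.38), and was not tested. On tumor-bearing MDP replicates 3 and 4 the first probe was not above background, so the probes did not mark the same samples.

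Taking the 9 tested members as a list, 0 were called for the tumor comparison in CDPs, where 1.79% of all tested probes were called, and 0 in MDPs, where 0.062% were. At an unadjusted limma p under 0.05 there was 1 member in each, Ccl9 in CDPs and Tnf in MDPs, against 13.7% and 10.4% of all tested probes. For the difference of the tumor changes 0 members were called by limma, and 0.0146% of all tested probes, with 1 member (Cxcl2) at an unadjusted p under 0.05, against 4.05% of all tested probes. The filter had favored a positive value of Cxcl2 there. In CDPs, 5 members were higher and 4 lower with tumor, with a median of 0.07 against 0.08 over all tested probes. In MDPs, 2 members were higher (Ccl4 and Ccl9) and 7 lower with tumor, with a median of -0.49 against -0.11.

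Of all tested probes, 60.2% were also lower in tumor-bearing MDPs. Among 6603 tested probes not above background on all 16 arrays the median tumor difference in MDPs was -0.64, and among the other 20830 it was -0.03. Of the 5 members above background on 16 arrays, 4 were lower in tumor-bearing MDPs, with a median of -0.32, where 53.2% of all probes above background on 16 arrays were lower. Of the other 4 members, 3 were lower, with a median of -0.85, against 82.3% of the dimmer probes. Quantile normalization, which set the median of all tested probes to 0.00 in MDPs, left 7 of 9 members lower with a median of -0.26. In tumor-bearing mice 7 of 9 members were higher in CDPs than in MDPs, with a median of 0.53 against 0.19 over all probes, and with quantile normalization 5 of 9 were.

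**Figure D3:**
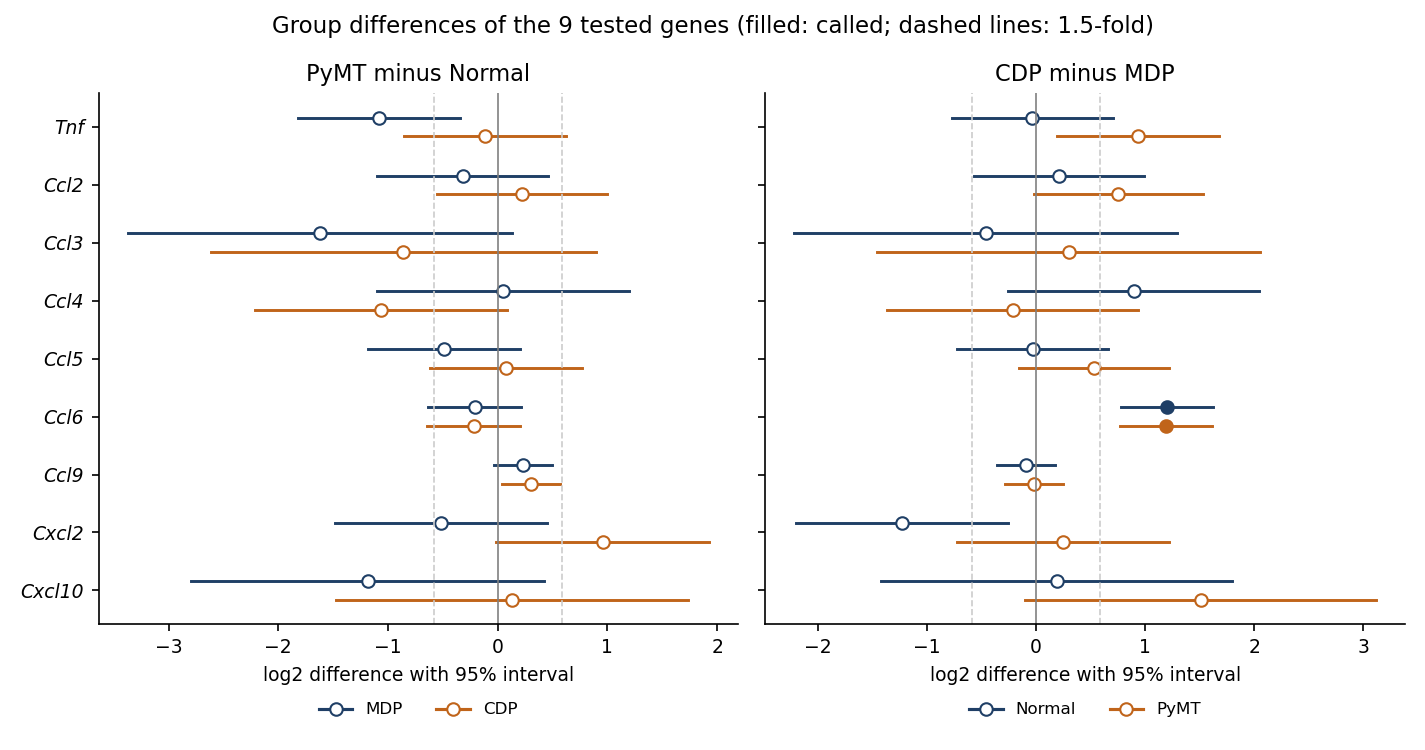
Log2 differences with 95% intervals from limma (horizontal axis) for the 9 tested member probes, for tumor-bearing against tumor-free samples in CDPs and MDPs and for CDPs against MDPs in tumor-free and tumor-bearing mice. The intervals of Ccl6 lie above 0 for CDPs against MDPs (0.78 to 1.62 and 0.77 to 1.62), and those of Ccl3 are the widest for the tumor differences in MDPs (-3.37 to 0.13).

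The receptors of these ligands were measured in the same samples, with 10 of 13 tested. Ccr2, the CCL2 receptor of monocytes and their precursors, was higher in CDPs than in MDPs, by 1.0 ± 0.180 (SE) without tumor (adjusted p = 0.00384) and 0.80 ± 0.180 (SE) with tumor (adjusted p = 0.0150). Cxcr2, the receptor of CXCL2, was lower in tumor-free CDPs than in tumor-free MDPs by limma (-1.80 ± 0.345 (SE), adjusted p = 0.00588). Cxcr3, the receptor of CXCL10, was higher in CDPs than in MDPs of tumor-bearing mice by 3.17 ± 0.895 (SE) (adjusted p = 0.0451), with 2 of 4 arrays of those MDPs above background, and it had entered the test through CDPs alone. Of the 10 receptors, 9 were higher and 1 lower in CDPs in each tumor state, with medians of 0.70 and 0.65. Of all tested probes, 52.1% and 61.5% were higher there, with medians of 0.02 and 0.19. For tumor, 8 of 10 were higher in CDPs and 4 of 10 in MDPs (7 of 10 with quantile normalization), against 57.7% and 39.8% of all tested probes. By the limma test 0 passed in either (3 in CDPs and 1 in MDPs at an unadjusted p under 0.05, against 13.7% and 10.4% of all tested probes). Ackr1, an atypical receptor that binds many chemokines without signaling, was lower in every tumor-bearing CDP sample than in every tumor-free one (-2.24 ± 0.640 (SE), adjusted p = 0.1), as was Il6st, which codes for the shared signaling receptor gp130 (-0.73 ± 0.298 (SE), adjusted p = 0.281).

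NF-kappaB subunits and their feedback inhibitors, which act upstream of most of these ligands, were all tested (12 of 12). In tumor-free mice 12 of 12 were higher in CDPs than in MDPs, with a median of 0.55, against 52.1% of all tested probes and a median of 0.02. Nfkb1, which codes for p105 and p50, passed the test (0.89 ± 0.179 (SE), adjusted p = 0.00782). With scaling to the median of probes above background on all arrays, 11 of 12 were higher. In tumor-bearing mice 9 of 12 were higher in CDPs, against 61.5% of all tested probes. The inhibitor Nfkbia (1.1 ± 0.301 (SE), adjusted p = 0.0390) and Nfkbiz, an atypical member of the inhibitor family (1.11 ± 0.239 (SE), adjusted p = 0.0122), passed the test. With tumor, Nfkbie, another inhibitor, fell in CDPs (-1.65 ± 0.330 (SE), adjusted p = 0.0240), and the other 11 did not pass the test. In CDPs 2 of the 12 were higher and 2 lower with tumor without overlap, as were 5.8% and 5.33% of all tested probes. Nfkb1 was among those lower (-0.73 ± 0.179 (SE), limma adjusted p = 0.0564). Bcl3, another atypical member of the inhibitor family, was higher in every tumor-bearing than in every tumor-free sample of both progenitors, by 1.27 ± 0.406 (SE) in CDPs (adjusted p = 0.143) and 1.33 ± 0.406 (SE) in MDPs (adjusted p = 0.322).

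Genes that act on the stability of cytokine mRNA or on the shedding of TNF from the membrane numbered 7, all tested. Zfp36, which codes for tristetraprolin, a protein that binds AU-rich elements of Tnf mRNA, was 2.47 ± 0.345 (SE) higher in CDPs than in MDPs of tumor-bearing mice (adjusted p = 6.40e-04), with 1 of 4 arrays of those MDPs above background. With tumor, Zfp36 differed by 0.71 ± 0.345 (SE) in CDPs without overlap (adjusted p = 0.393), as did Zfp36l1, a related protein, by 0.77 ± 0.296 (SE) (adjusted p = 0.240). The third paralog, Zfp36l2, named after its values were seen, differed the other way without overlap in CDPs (-0.47 ± 0.157 (SE), adjusted p = 0.163). For tumor, 0 of 7 passed the limma test in CDPs or MDPs (2 in each at an unadjusted p under 0.05, against 13.7% and 10.4% of all tested probes), and the medians were -0.00 and -0.24. In MDPs Zc3h12a, an RNase that cleaves Il6 mRNA, was lower with tumor without overlap (-0.90, adjusted p = 0.282).

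Other chemokines on the array numbered 27, of which 13 were tested. None of the 13 passed the limma test for tumor in either progenitor (0 in CDPs and 1 in MDPs at an unadjusted p under 0.05, against 13.7% and 10.4% of all tested probes). In tumor-bearing MDPs 13 of 13 were lower, with a median of -0.88, or -0.45 with quantile normalization. Of all tested probes 60.2% were lower there, and 82.3% of those not above background on all 16 arrays. In tumor-bearing CDPs 9 of 13 were higher, with a median of 0.37, against 57.7% of all tested probes. Lower medians with tumor in MDPs were also seen for most marker lists, that of the progenitors among them (6 of 7 lower, median -0.12). For other cells, 9 of 10 T and NK cell markers, 6 of 6 B cell markers, 7 of 7 erythroid markers and 5 of 5 mammary tumor markers were lower. So were 9 of 9 markers of conventional and plasmacytoid dendritic cells, 5 of 5 of megakaryocytes and platelets and 6 of 11 of monocytes and macrophages. Neutrophil markers (7 of 11 higher, median 0.08) and basophil and mast cell markers (3 of 5 higher, median 0.30) went the other way there. The part of these cells and of dim probes in the chemokine values was not tested.

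**Figure D4:**
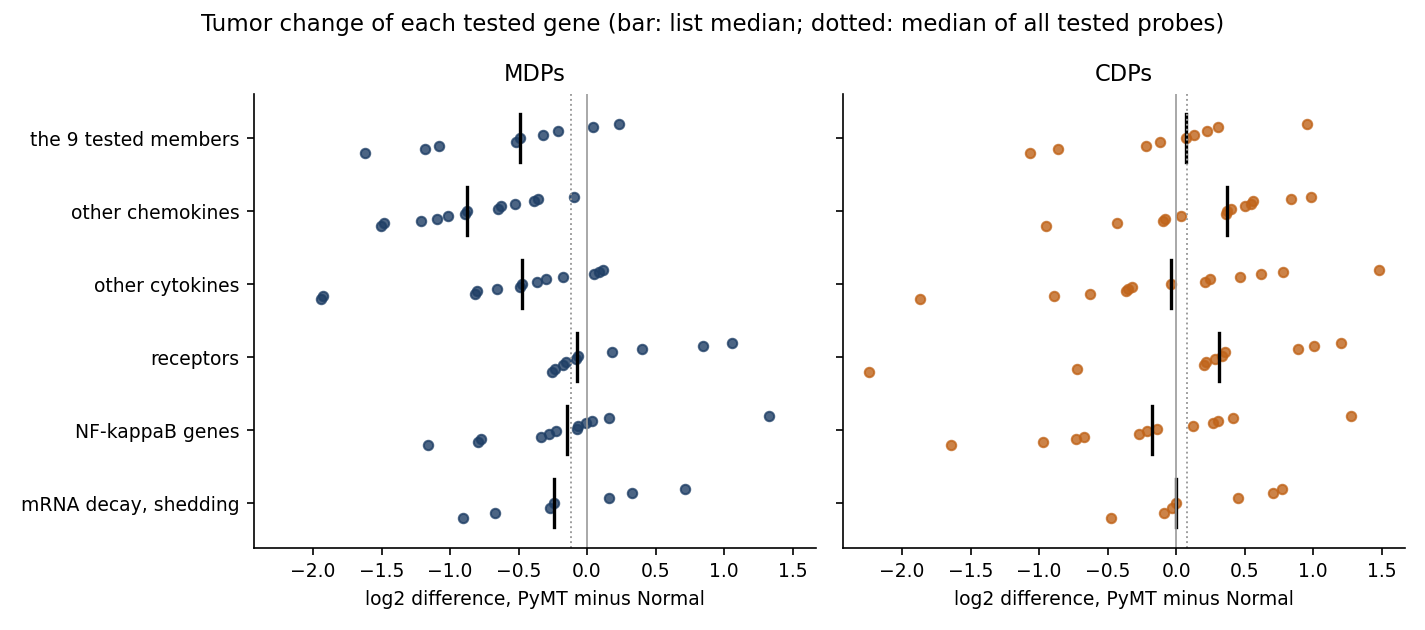
Log2 differences from limma for tumor-bearing against tumor-free samples in CDPs and MDPs (horizontal axis), with 1 point per gene, for the 9 tested members and the lists of related genes, with the median of each list and of all tested probes. The members have medians of 0.07 in CDPs and -0.49 in MDPs, and the 13 other chemokines 0.37 and -0.88.

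Other cytokines numbered 27, of which 13 were tested, and between progenitors 2 passed the test in tumor-free mice (Csf1 and Il12a) and 2 in tumor-bearing mice (both higher in CDPs). Csf1 and Il12a entered the test through tumor-free MDPs alone, the 1 group with 3 or more arrays above background, so the filter favored lower values in CDPs and their p-values are given as a description. Csf1, which codes for the macrophage growth factor M-CSF, was -3.80 ± 0.74 (SD, n = 4) in tumor-free MDPs and not well above background in tumor-free CDPs (limma adjusted p = 0.0143). Il12a differed by -2.15 ± 0.606 (SE) between tumor-free CDPs and tumor-free MDPs by limma (adjusted p = 0.0497), with 1 of 4 CDP arrays above background. Flt3l, which codes for the ligand of the dendritic cell growth factor receptor FLT3, was 1.1 ± 0.225 (SE) higher in CDPs than in MDPs of tumor-bearing mice (adjusted p = 0.00916), and Il27 was 0.91 ± 0.246 (SE) higher (adjusted p = 0.0365). With tumor, 0 of 13 passed the limma test in either progenitor (3 in each at an unadjusted p under 0.05, against 13.7% of all tested probes in CDPs and 10.4% in MDPs). Il12a was 1 of the 3 in MDPs, where the filter also favored lower values with tumor. Il16 was lower in every tumor-bearing than in every tumor-free CDP sample (-0.63 ± 0.162 (SE), adjusted p = 0.0692), and in MDPs Flt3l was (-0.65 ± 0.225 (SE), adjusted p = 0.372). Mif was higher without overlap in tumor-bearing CDPs (0.78 ± 0.225 (SE), adjusted p = 0.106).

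For the remaining members measured on at least 12 arrays, the most similar gene over the 16 arrays was Nrd1 for Tnf (r = 0.832), Rilpl1 for Ccl3 (r = 0.847), Mrs2 for Ccl4 (r = 0.809), Cnbd2 for Ccl5 (r = 0.899) and Vmn1r15 for Ccl2 (r = 0.975). With the mean of each slide removed, the value for Ccl2 was 0.75, and the others were 0.787, 0.828, 0.835 and 0.807 in the same order. The Ccl2 likeness thus shrank most when slides were centered. Cxcl2, Cxcl10 and Il6 were well above background on too few arrays for this comparison.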

How the data were processed

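RNA of 16 sorted progenitor samples was hybridized to Agilent mouse arrays, labeled with Cy5 alone. The authors deposited the spot tables of Agilent Feature Extraction 11.5.1.1, whose processed signal is a background-subtracted intensity not scaled between arrays. A second table that the authors deposited holds log2 signals after quantile normalization (26793 probes, 10 of the member probes among them) and served as an alternative. Probe positions are on mm9 per the file headers. Promoter windows are from RefSeq on GRCm38.p6, and 136 of 137 leading probes of members and lists matched a RefSeq symbol.

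Groups follow the labels. Outlier and control spots were left out, and the log2 intensity minus the 75th percentile of the array was taken as the mean of a probe's spots. limma 3.58.1 (R 4.3.3) fitted the 4 group means, with Benjamini-Hochberg adjustment. Single members also had an exact two-sided permutation test (70 relabelings). Where several probes of a gene were tested, that of the highest mean leads. From each list of other genes, those called are named, and otherwise up to 2 per progenitor with the largest tumor differences among genes whose groups do not overlap; a few more are named for their role. The members, the lists and the tests were chosen with earlier results of these data known. Fits were tested on simulated data.

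The alternatives tried were quantile normalization, normexp background correction with an offset of 50, the deposited table, scaling to the median of the probes that every array detected, a filter on all 16 arrays or none, a block for slide or for replicate number, a fit of the compared groups alone, the methods' t-test, other thresholds, leaving out each array and, chosen after seeing the data, leaving out slide 1. With 4 arrays a group, the number of arrays limits the precision. Windows and motifs were read with Python 3.11.15 and pandas 2.3.3, and plots drawn with matplotlib 3.10.9. Some genes of the lists are not reported here by name.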

Additional observations from a re-analysis of the deposited data

Results flagged for a closer look

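Of 44 sets of 4 arrays (11 probes in 4 groups), 2 held a sample far from the others, both for the second Cxcl10 probe, and chance alone marks about 1 set in 20. Tumor-free CDP replicate 2 had -3.38 where the nearest of its group had -7.28, a gap of 0.944 of the range of the group (past Dixon's critical value for 4), and it was the 1 array of the 4 that was well above background. Tumor-bearing CDP replicate 2 had -5.43 where the nearest had -7.37, a gap of 0.881 of the range, and 0 of these 4 arrays was well above background. On the first Cxcl10 probe the same samples gave -3.36 and -3.78, each the highest of its group.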

How the results depend on the processing

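The count of members called stayed at 0 for tumor in CDPs and in MDPs under all alternatives run, and at 0 for the difference of the tumor changes except with the methods' t-test unadjusted (1). For CDPs against MDPs it was 1 in tumor-free mice, 2 with the methods' t-test unadjusted, and 1 in tumor-bearing mice, 2 with the slide as a block (adding Cxcl10) and 3 with the methods' t-test unadjusted. Cxcl10 had entered the test through CDPs alone. Replicate numbers did not pair the samples (8 of 24 same-numbered pairs correlated above 0.1, and 4 of 16 arrays were nearest to their own number), and with the replicate block Cxcl2 joined Ccl6 in tumor-free mice (2 members, Cxcl2 -1.23, adjusted p = 0.0334) while no other member's call changed. The filter had favored lower Cxcl2 in CDPs than in MDPs of tumor-free mice. Leaving out 1 array gave 0 to 0, 0 to 0, 0 to 0, 1 to 1 and 1 to 2 members, in the order CDPs, MDPs, difference, tumor-free and tumor-bearing progenitor comparison. Ccl6 kept its calls under all alternatives, with adjusted p of 7.14e-04 to 0.0326 (tumor-free) and 0.00132 to 0.0251 (tumor-bearing). No member had a second tested probe, so that alternative gave no value. Over all tested probes the calls were 491, 17, 4, 1665 and 1986 in the same order, from 3, 1, 0, 1271 and 587 to 2072, 1016, 859, 2995 and 4122 under the alternatives, the highest being the unadjusted t-test, and from 153, 1, 3, 1116 and 1126 to 578, 43, 7, 1494 and 3276 without 1 array. Quantile normalization shifted the median of all tested probes from -0.11 to 0.00 for tumor in MDPs and from 0.19 to -0.00 for tumor-bearing CDPs against MDPs, and normexp background correction shifted it from 0.02 to -0.11 for tumor-free CDPs against MDPs.

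Signs turned for uncalled members. With normexp background correction, Cxcl10 was -0.013 for tumor in CDPs and -0.39 for tumor-free CDPs against MDPs, Ccl4 was -0.16 for tumor in MDPs, and Ccl3 was -0.18 for tumor-bearing CDPs against MDPs. In that last comparison quantile normalization and the deposited table gave -0.28 and -0.28 for Ccl3 and -0.38 and -0.38 for Cxcl2. With the slide as a block, Ccl2 and Ccl5 were -0.076 and -0.14 for tumor in CDPs and Ccl4 was -0.014 for tumor in MDPs. Without slide 1, Ccl2 and Ccl5 were -0.092 and -0.076 for tumor in CDPs, Ccl2 and Ccl4 were 0.044 and -0.97 for tumor in MDPs, and Ccl4 was 0.80 for tumor-bearing CDPs against MDPs. The cause was not tested. Leaving out 1 array gave, for tumor in CDPs, -0.29 to 0.0015 for Tnf, -0.092 to 0.38 for Ccl2, -0.10 to 0.28 for Ccl5 and -0.57 to 0.49 for Cxcl10. For tumor in MDPs it gave -0.37 to 0.44 for Ccl4. For tumor-free CDPs against MDPs it gave -0.31 to 0.15 for Tnf, -0.29 to 0.13 for Ccl5 and -0.18 to 0.89 for Cxcl10. For tumor-bearing CDPs against MDPs it gave -0.35 to 0.95 for Ccl3, -0.61 to 0.20 for Ccl4, -0.083 to 0.038 for Ccl9 and -0.084 to 0.64 for Cxcl2.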
